A study of Rattus norvegicus with 4 samples.

Results

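Long intergenic noncoding RNAs (lincRNAs) expressed in cultured rat heart muscle cells are described here. The members are the 126 rows with the Ensembl biotype lincRNA that reached a normalised read count of 10 in at least 2 of the 4 libraries, out of 409 lincRNA rows and 16290 rows in all. The members were chosen by these values, their levels in the 4 libraries, so levels are given as a description with no test. Among lincRNA rows 30.8% reached the minimum, against 82.3% of protein-coding rows.

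The cells were cardiomyocytes of neonatal rats at postnatal day 3, grown in medium with horse serum. All cells had received an adenovirus vector, which encoded mock in the control group and the kinase Pdk3 in the other group, with 2 libraries each. Pdk3 phosphorylates and so restrains pyruvate dehydrogenase, the enzyme complex that passes pyruvate from glycolysis to the citric acid cycle. Stranded mRNA libraries were made from total RNA, and the labels give no strain and do not say whether the libraries of a group came from separate cultures or animals. A p-value here therefore reflects the spread between library preparations, which is possibly technical alone.

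lincRNAs are transcripts with little or no coding potential whose genes lie between protein-coding genes. Many are capped, spliced and polyadenylated like mRNAs, are less abundant than most mRNAs and stay in the nucleus, where the nuclear exosome removes many of them. Some act on the gene next to them, some act elsewhere in the cell, and for others the act of transcription or shared regulatory DNA links them to a neighbour. In the heart, lincRNA genes lie beside several developmental transcription factor genes, Hand2 among them.

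Most of the members carry no gene name: 107 are known by a clone identifier and 17 by a LOC number. Only Tug1 and a row named Rfwd3 have other symbols. Tug1 is a long noncoding RNA found across many tissues and species. Rfwd3 is a ubiquitin ligase of DNA repair and is protein coding in RefSeq, so that the lincRNA biotype of its row goes against its symbol. The members lie on 21 chromosomes, with 14 on chromosome 1 and 11 on the X chromosome (8.73% of members, against 3.11% of the tested protein-coding genes). Their spans in the genome run from 512 to 221126 bases with a median of 5010.5 (build rn6).

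The promoter sequences that RefSeq gives for Tug1 and for 3 protein-coding genes next to members discussed below are printed here, because these neighbours either lie head to head with a member or changed with Pdk3. Of the 126 members, 12 matched a RefSeq gene by symbol and 9 of those have a promoter entry. Each sequence is the 250 bases before the RefSeq start in build GRCr8, 5′ to 3′ along the gene, and that start can differ from the start of the row in the deposited table. Tug1 (chr14:82750535-82750784, minus strand), Hand2 (chr16:37931489-37931738, minus strand), Fbn2 (chr18:53901993-53902242, minus strand) and Gucy1b1 (chr2:169696988-169697237, minus strand) read as follows.
Tug1: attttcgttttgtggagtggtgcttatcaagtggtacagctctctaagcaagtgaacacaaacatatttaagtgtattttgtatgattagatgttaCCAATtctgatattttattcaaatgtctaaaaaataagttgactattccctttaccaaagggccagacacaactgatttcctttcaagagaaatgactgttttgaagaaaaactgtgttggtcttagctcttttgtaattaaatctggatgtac
Hand2: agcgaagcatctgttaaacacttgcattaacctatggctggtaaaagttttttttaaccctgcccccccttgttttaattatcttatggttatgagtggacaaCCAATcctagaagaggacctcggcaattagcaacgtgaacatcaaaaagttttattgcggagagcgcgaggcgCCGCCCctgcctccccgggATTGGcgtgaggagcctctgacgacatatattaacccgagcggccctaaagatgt
Fbn2: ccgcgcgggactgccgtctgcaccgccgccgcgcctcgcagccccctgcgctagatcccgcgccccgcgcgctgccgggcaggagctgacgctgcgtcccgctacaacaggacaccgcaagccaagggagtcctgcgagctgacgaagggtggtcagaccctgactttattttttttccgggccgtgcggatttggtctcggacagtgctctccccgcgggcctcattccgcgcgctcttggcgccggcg
Gucy1b1: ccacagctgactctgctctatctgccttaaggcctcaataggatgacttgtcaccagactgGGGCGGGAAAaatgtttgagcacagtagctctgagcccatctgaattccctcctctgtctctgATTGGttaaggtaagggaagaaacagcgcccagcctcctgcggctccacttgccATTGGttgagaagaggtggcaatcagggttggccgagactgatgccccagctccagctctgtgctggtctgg
Capitals mark the letters of 4 motifs searched on both strands: CCAAT (the CCAAT box), GGGCGG (the GC box), TATAAA (the TATA box) and TTTCCCGC, TTTGGCGC or TTTCGCGC (E2F sites). Among 33469 RefSeq promoters cut to the same 250 bases, 34.0% held CCAAT, 30.5% GGGCGG, 12.9% TATAAA and 1.41% one of the E2F letters. Tug1 held 1 CCAAT box, 154 to 150 bases before the start, and its window had a GC content of 32.8%. Hand2 held 2 CCAAT boxes and 1 GC box, and Gucy1b1 held 2 CCAAT boxes and a GC box that overlaps an E2F match 187 to 180 bases before the start. The Fbn2 window, with a GC content of 70%, held none of these letters. These matches describe letters in a window and show neither binding nor control.

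The members were low. Over the 4 libraries the mean normalised count of a member ran from 9 to 487.25 with a median of 27.1, against a median of 224 for all genes tested. Of the 126 members, 50 had a mean under 20, 41 a mean of 20 to under 50, 21 a mean of 50 to under 100, and 14 a mean of 100 or more. Single values ranged from 3 to 523. Summed over the members, the values were 6263 and 6371 in the mock libraries and 6233 and 6442 in the Pdk3 libraries, which is 0.139% to 0.144% of each library's total. The sums of the 2 groups overlap. The 10 members of highest mean held 37.3% of the summed values. Values are not per gene length, so the order of members is one of read counts and not of transcript number.

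**Figure D1:**
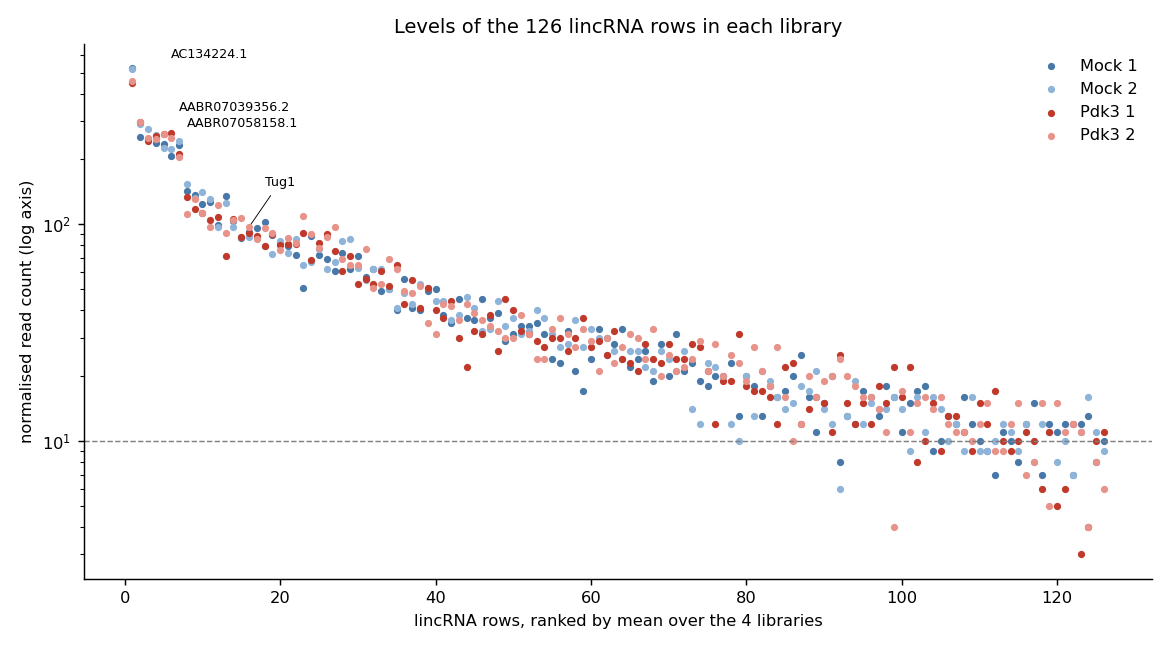
Normalised read count of the 126 lincRNA rows (log axis) in each library, ranked by their mean over the 4 libraries, with 1 point per library and a dashed line at the minimum of 10. Counts fall from 523 at AC134224.1 to a tail near 10, where single libraries lie as low as 3.

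The minimum of 10 set the lower edge. The second highest value of 12 members was 10 or 11, as in AABR07062344.2 with 10 and 11 in mock and 9 and 12 in Pdk3, while 21 lincRNA rows just outside had a second highest value of 8 or 9. Of the 283 lincRNA rows outside, 15 had 1 value of at least 10 and 127 had no value above 3. There were 5 members that passed through 1 group only, so that their groups had to differ: LOC102551356, AABR07030091.1, AABR07026032.2, AC141220.3 and LOC108349943. LOC102551356 and AABR07030091.1 are among the called members below. Their values are given as a description with no p, and counts of calls are also given without these 5.

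At the top of the order stood AC134224.1 (ENSRNOG00000062127, chromosome 1, 221154561 to 221156910, minus strand), with 523 and 521 in mock and 449 and 456 in Pdk3. It was followed by AABR07039356.2 on the X chromosome, with 252 and 290 in mock and 296 and 295 in Pdk3. AABR07058158.1 had 247 and 275 in mock and 243 and 250 in Pdk3. That row spans 221126 bases, the longest of the members, and starts 57.6 kb beyond the 3′ end of Myc, the growth-promoting transcription factor. Close below came AABR07072236.1 with 236 and 258 in mock and 254 and 248 in Pdk3, and AABR07021544.1 with 235 and 225 against 260 and 260. Apart from AC134224.1, these rows lie within each other's range and their order is not separated by the spread between libraries. AC134224.3, LOC100909912, AABR07007026.1 and AABR07021456.1 had mean counts of 122 to 222. Tug1 had 92 and 87 in mock and 91 and 97 in Pdk3.

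Of the 126 members, 10 differed between Pdk3 and mock. On the log2(value + 1) scale, limma fitted to all 12838 genes tested called 6 members higher and 4 lower at a p under 0.05 after Benjamini-Hochberg (BH) adjustment, which is 7.94% of the members. The same threshold called 22.9% of all genes tested, 11.7% higher and 11.3% lower, and these shares stand side by side with no test of their difference. The background share falls with the level: 5.36% of protein-coding genes with a mean under 20 were called, 11.7% from 20 to under 50, 18.7% from 50 to under 100, and 27.4% at 100 or more. In the same bands 3 of 50, 0 of 41, 3 of 21 and 4 of 14 members were called by limma, and 5, 4, 4 and 8 had an unadjusted p under 0.05. Without the 5 members that passed through 1 group only, 8 of 121 members were called, 5 higher and 3 lower, and 1 of 45 with a mean under 20. The median standard error of a member's log2 fold change was 0.22, against 0.06 over all genes, which sets how small a change could be seen. In these bulk cultures, fewer cells of a type and less RNA per cell cannot be told apart.

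Over all members the direction was balanced. Log2 fold changes were above 0 in 64 members, below 0 in 61 and at 0 in 1, with a median of 0.01 against -0.01 for all genes. The median size of a change, sign ignored, was 0.19 in members and 0.12 in all genes. The 2 libraries of one group lay wholly above or below those of the other in 54 members (42.9%), 29 with Pdk3 higher and 25 with Pdk3 lower, against 61.0% of all genes tested. The unadjusted p was under 0.05 in 21 members, 11 higher and 10 lower. Among 12461 tested protein-coding rows it was under 0.05 in 2261 higher and 2362 lower, a larger share.

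The balance depends on the scaling between libraries. With the libraries rescaled so that the median of 67 ribosomal protein genes did not move, the median of all genes went from -0.01 to -0.09, 937 genes were called higher and 3594 lower, and 17 members were called, 6 higher and 11 lower. Among the 17 were 9 of the 10, all but Rfwd3. The additional calls were AABR07044049.1, higher, and AC134224.2, AC134224.3, AABR07007026.1, AABR07011013.1, AABR07021456.1, AABR07030598.1 and AABR07042999.1, lower. With trimmed mean (TMM) scaling the 10 kept their calls, and AABR07021544.1 and AABR07044049.1 joined them as higher.

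**Figure D2:**
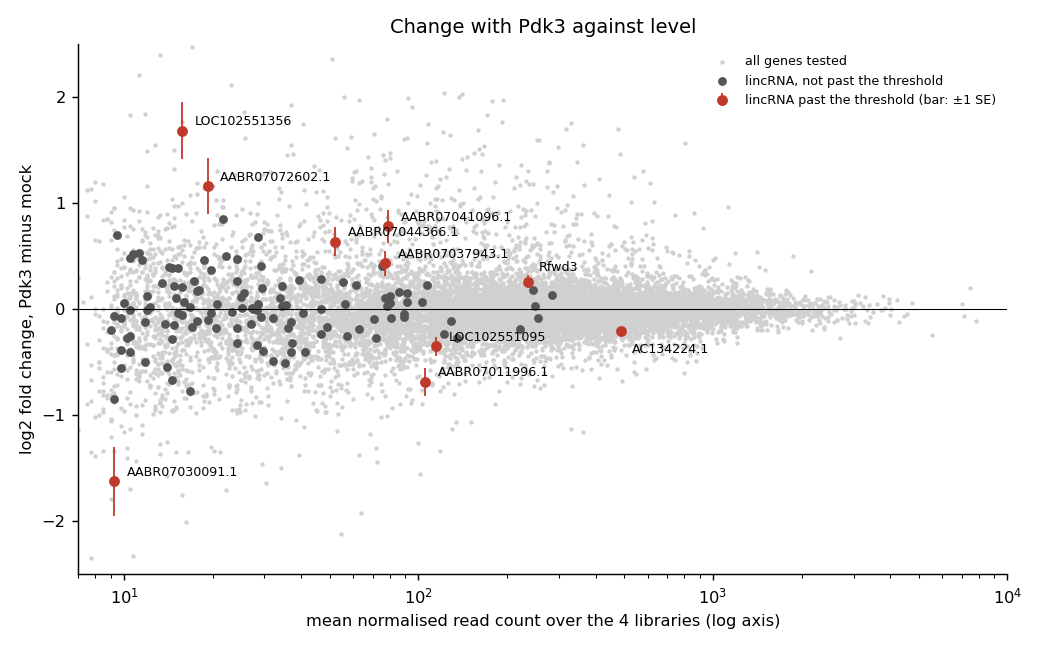
Log2 fold change of each gene, Pdk3 minus mock, against its mean normalised read count (log axis), with all genes tested in grey, lincRNA rows in dark grey and the 10 called rows in red with bars of 1 SE; 2 genes beyond the vertical range are not drawn. The called rows lie on both sides of 0, from LOC102551356 at 1.68 to AABR07030091.1 at -1.63, over means of 9.25 to 487.25.

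LOC102551356 had the largest fitted rise, but it passed the minimum through the Pdk3 libraries alone, so its groups had to differ (ENSRNOG00000059170, chromosome 18, 62227385 to 62234905, plus strand). It had 8 and 6 in mock and 25 and 24 in Pdk3, all of them low values. The mean was 7 ± 1.41 in mock and 24.5 ± 0.707 in Pdk3 (SD, n = 2 each), a fitted log2 fold change of 1.68 ± 0.27. It is an uncharacterised transcript that RefSeq also lists as a long noncoding RNA. Its nearest protein-coding row is Pmaip1, which encodes the pro-apoptotic BH3-only protein Noxa and ends 46.3 kb away on the same strand. Pmaip1 had 161 and 165 in mock and 161 and 177 in Pdk3, a log2 fold change of 0.05 (limma, BH-adjusted p = 0.671).

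AABR07072602.1 rose beside its neighbour Fbn2 (ENSRNOG00000052190, chromosome 18, 53216095 to 53272041, minus strand). Values were 13 and 10 in mock and 31 and 23 in Pdk3, with no overlap, and the log2 fold change was 1.16 ± 0.27 (BH-adjusted p = 0.0189). Fbn2, which encodes the microfibril protein fibrillin-2, lies 34.6 kb away on the same strand, with its 5′ end, where the promoter printed above lies, towards the lincRNA row. It had 206 and 223 in mock and 406 and 445 in Pdk3, a log2 fold change of 0.98 ± 0.06 (BH-adjusted p = 6.93e-05). The pair's log ratio differed between groups by 0.17 ± 0.27 (BH-adjusted p = 0.699), so a difference between their changes was not detected at this depth.

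AABR07044366.1 rose, as did its neighbour Mdc1 (ENSRNOG00000052122, chromosome 20, 3403204 to 3403731, minus strand). It had 40 and 41 in mock and 65 and 62 in Pdk3, a log2 fold change of 0.64 ± 0.14 (BH-adjusted p = 0.0143). The row lies 0.98 kb beyond the 3′ end of Mdc1, a DNA damage checkpoint mediator, and on the same strand. Mdc1 went from 489 and 497 to 733 and 774, a log2 fold change of 0.61 ± 0.04 (BH-adjusted p = 5.07e-05), and the log ratio of the pair differed by 0.03 ± 0.13 (BH-adjusted p = 0.916). On the other side, Nrm, which encodes the nuclear envelope protein nurim, rose from 60 and 70 to 111 and 108 (log2 change 0.75 ± 0.12, BH-adjusted p = 0.00381). Tubb5, a beta tubulin gene further along, rose from 1079 and 1087 to 1355 and 1315 (0.30 ± 0.02, BH-adjusted p = 0.000192). Flot1, the flotillin-1 gene beyond Tubb5, fell, from 770 and 772 to 711 and 696 (-0.13 ± 0.03, BH-adjusted p = 0.0149, and 0.0539 with a floor at counting noise, explained below). Whether reads of AABR07044366.1 come from its own transcript or from longer Mdc1 transcripts was not tested.

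On the X chromosome 2 of the 11 members rose. AABR07041096.1 (ENSRNOG00000054795, 119194437 to 119200775, minus strand) had 51 and 65 in mock and 91 and 109 in Pdk3, a log2 fold change of 0.78 ± 0.15 (BH-adjusted p = 0.0107). Its neighbour Pls3, the gene of the actin-bundling protein plastin 3, lies 70.2 kb away on the other strand and had 514 and 541 against 508 and 513. The log ratio of this pair differed by 0.83 ± 0.14 (BH-adjusted p = 0.000409). AABR07037943.1 (ENSRNOG00000051958, 35971697 to 35984183, minus strand) had 69 and 62 in mock and 90 and 87 in Pdk3, a log2 fold change of 0.43 ± 0.11 (BH-adjusted p = 0.0329). Ppef1, a phosphatase gene 24.4 kb from it, had 17 and 24 against 31 and 25, a log2 fold change of 0.44 that did not pass (BH-adjusted p = 0.233).

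The row named Rfwd3 was also called higher (ENSRNOG00000051461, chromosome 19, 42964586 to 42972101, plus strand). It had 206 and 223 in mock and 263 and 250 in Pdk3, a log2 fold change of 0.26 ± 0.06 (BH-adjusted p = 0.0248). Glg1, a Golgi glycoprotein gene that starts 11.8 kb further along the same strand, had 2385 and 2363 against 2451 and 2337, and the log ratio of the pair differed by 0.25 ± 0.05 (BH-adjusted p = 0.00310). When a p was not allowed to fall below the exact binomial p of the summed counts, AABR07037943.1 (BH-adjusted p = 0.0592) and Rfwd3 (BH-adjusted p = 0.0512) lost their call. The other 8 called members kept it (4 higher, 4 lower), against 16.0% of all genes tested that passed with the floor.

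**Figure D3:**
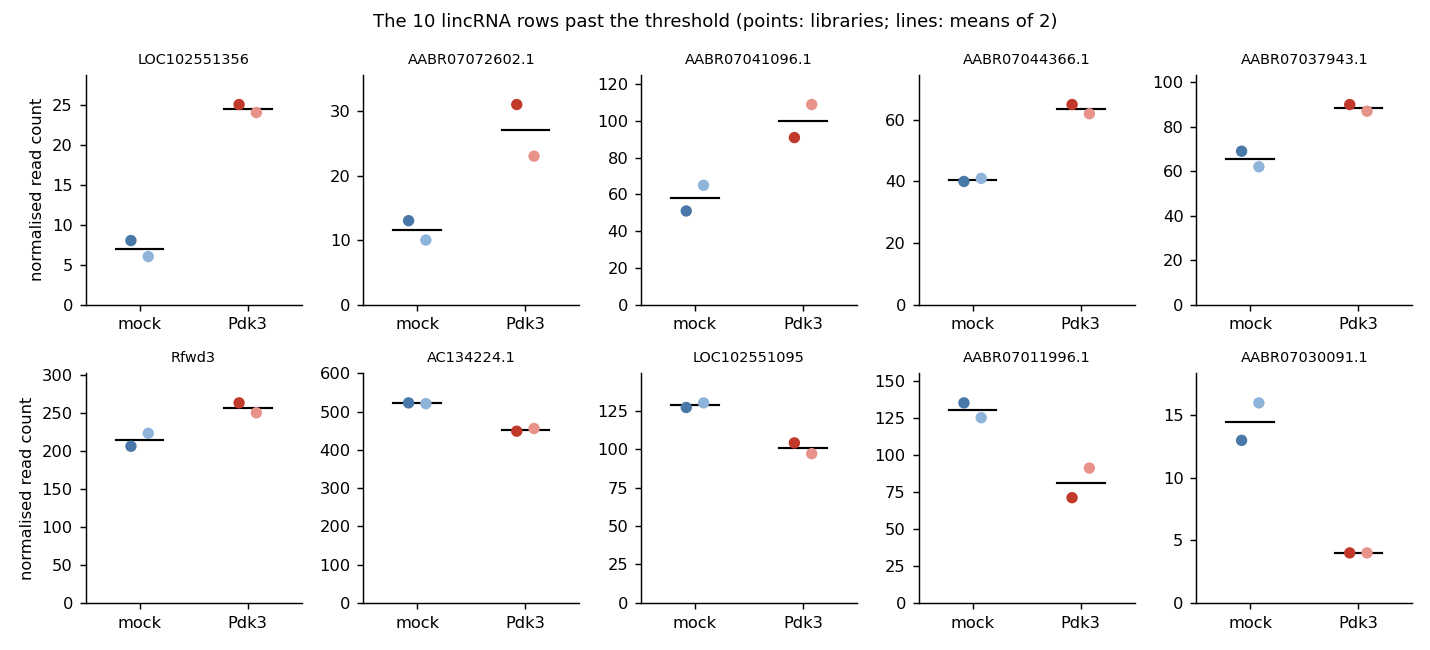
Normalised read counts of the 10 called lincRNA rows, 1 panel each with its own vertical axis from 0; points are libraries (blue mock, red Pdk3, the darker shade the first of each group) and lines are means of 2. In each panel the 2 groups do not overlap, and the rows with the largest fold changes, LOC102551356 and AABR07030091.1, have values of 25 or less.

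Among the 4 members called lower, AABR07011996.1 moved against its neighbour (ENSRNOG00000061272, chromosome 2, 180878153 to 180883459, plus strand). It had 135 and 125 in mock and 71 and 91 in Pdk3, a log2 fold change of -0.69 ± 0.13 (BH-adjusted p = 0.00941). Gucy1b1, which encodes the beta subunit of soluble guanylate cyclase, the nitric oxide receptor, lies 93.5 kb away with its 3′ end facing the row. It rose from 387 and 413 to 518 and 520 (log2 change 0.38 ± 0.04, BH-adjusted p = 0.000963), and the log ratio of the pair differed by -1.06 ± 0.13 (BH-adjusted p = 3.60e-05). Gucy1b1 is the one called neighbour that changed in the opposite direction to a called member.

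AABR07030091.1 passed the minimum through the mock libraries alone (ENSRNOG00000054016, chromosome 10, 67107927 to 67128049, minus strand). It had 13 and 16 in mock and 4 and 4 in Pdk3, a fitted log2 fold change of -1.63 ± 0.33, given as a description. Its neighbour Rab11fip4, an effector of Rab11 in membrane traffic, lies 59.6 kb away and was too low to test, with 0 and 1 in mock and 0 and 3 in Pdk3. LOC102551095 (ENSRNOG00000061118, chromosome 2, 183807073 to 183811118, minus strand) had 127 and 130 in mock and 104 and 97 in Pdk3. Its log2 fold change was -0.35 ± 0.09 (BH-adjusted p = 0.0270), and its neighbour Tmem154, 95.3 kb away, had no value above 3 and was not tested.

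AC134224.1, the most abundant member, fell from 523 and 521 to 449 and 456. The mean went from 522 ± 1.41 to 452.5 ± 4.95 (SD, n = 2 each), a log2 fold change of -0.21 ± 0.03 (BH-adjusted p = 0.00534). This small fall stands outside the spread within either group. AC134224.1 is the middle one of 3 members on the minus strand of chromosome 1, with gaps of 1.28 kb and 1.19 kb between them. AC134224.2 had 74 and 84 in mock and 61 and 69 in Pdk3, a log2 fold change of -0.28 ± 0.13 (BH-adjusted p = 0.164). AC134224.3 had 231 and 242 in mock and 210 and 205 in Pdk3, a log2 fold change of -0.19 ± 0.06 (BH-adjusted p = 0.0553). In all 3 rows the Pdk3 values lie below the mock values, with AC134224.1 alone past the threshold. Whether rows this close are pieces of one transcript was not tested. Frmd8, which encodes a partner of the iRhom proteins and lies at higher coordinates on the same strand, had 356 and 335 against 317 and 289, a log2 fold change of -0.19 (BH-adjusted p = 0.0571).

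**Figure D4:**
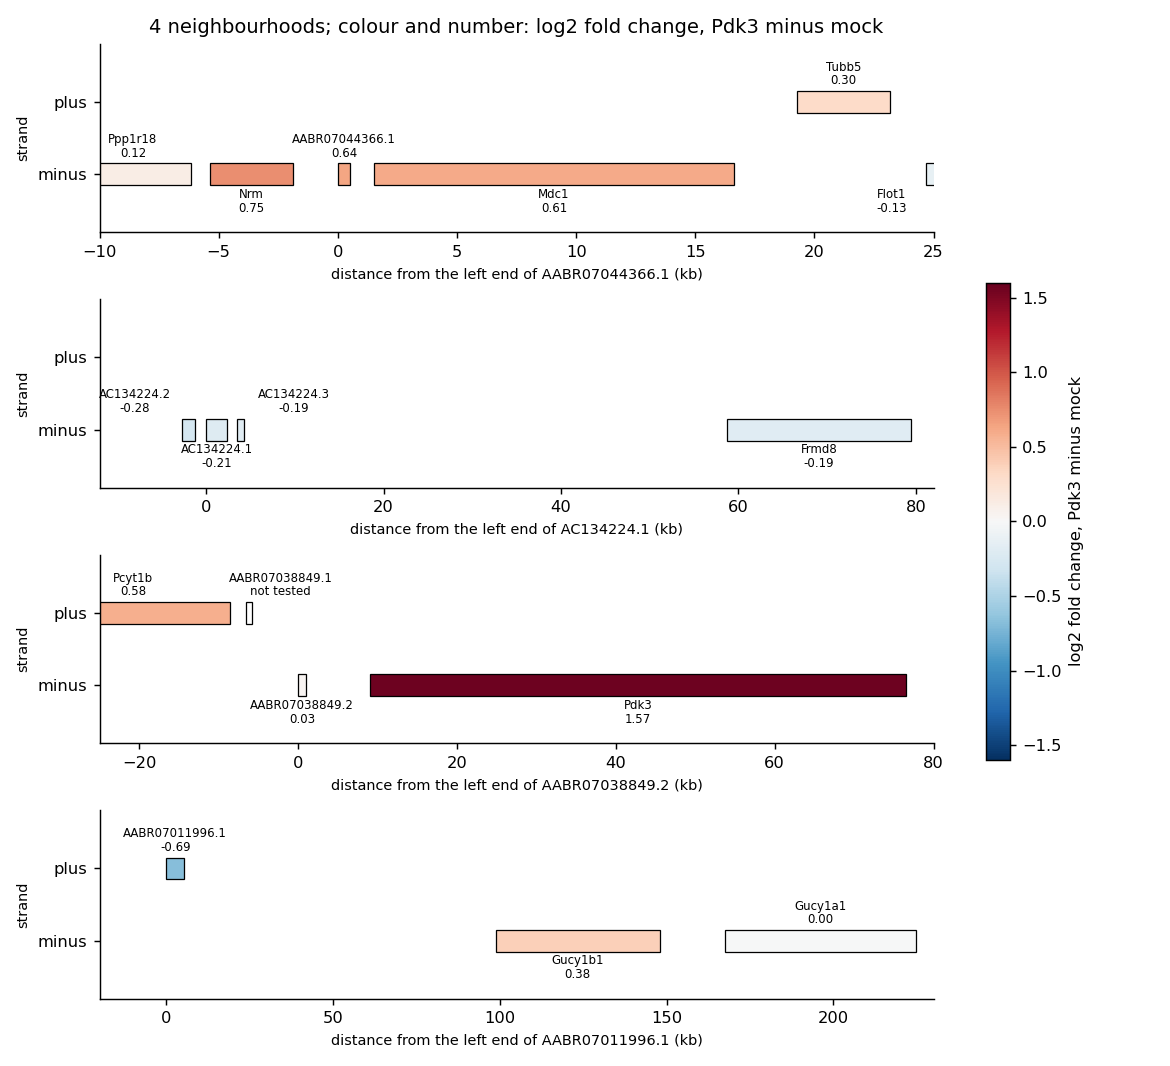
Maps of 4 neighbourhoods, each drawn to its own scale in kb from the left end of a lincRNA row, with rows on the plus and minus strand and coloured by log2 fold change, Pdk3 minus mock. AABR07044366.1 (0.64) lies between Nrm (0.75) and Mdc1 (0.61), with Flot1 (-0.13) further off; the 3 AC134224 rows have values of -0.28, -0.21 and -0.19; AABR07038849.2 (0.03) lies beside Pdk3 (1.57); and AABR07011996.1 (-0.69) lies across from Gucy1b1 (0.38).

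AABR07038849.2 (chromosome X, 62827048 to 62828058, minus strand) is the member nearest to Pdk3 and lies 8.07 kb beyond its 3′ end on the same strand. It had 31 and 37 in mock and 40 and 30 in Pdk3, so its groups overlap (log2 change 0.03 ± 0.20, BH-adjusted p = 0.929). The Pdk3 row itself had 396 and 411 in mock and 1218 and 1177 in Pdk3, a log2 fold change of 1.57 ± 0.03 (BH-adjusted p = 1.47e-06). Pdk3 is the gene the vector delivers, and the share of vector reads in its row was not tested. The difference between this pair is thus set by the design and is not a result on the lincRNA.

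Members beside heart and growth regulators were measured without a call. Hand2, a transcription factor needed for heart development, has 3 members around it: AABR07025387.1 starts 1.05 kb from it head to head, and AABR07025385.1 and AABR07025386.1 lie further away with 20.6 kb between them. AABR07025387.1 had 86 and 87 in mock and 87 and 107 in Pdk3, a log2 fold change of 0.16 (BH-adjusted p = 0.404). AABR07025385.1 had 50 and 50 against 52 and 69 (BH-adjusted p = 0.308), and AABR07025386.1 had 89 and 73 against 90 and 91 (BH-adjusted p = 0.380). Hand2 itself had 102 and 96 against 103 and 99. All 3 rows had positive fold changes that did not pass, with the higher values in the second Pdk3 library for AABR07025387.1 and AABR07025385.1.

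AABR07042999.1, 2.88 kb from Irx3, a homeobox gene active in the cardiac conduction system, had 25 and 18 in mock and 12 and 12 in Pdk3. Its log2 fold change of -0.77 ± 0.26 missed the threshold (BH-adjusted p = 0.0719), while Irx3 fell from 289 and 266 to 217 and 239 (-0.28 ± 0.07, BH-adjusted p = 0.0241). AABR07007026.1, 1.46 kb beyond the 3′ end of the beta-1 adrenergic receptor gene Adrb1, had 142 and 153 against 133 and 111 (-0.28 ± 0.10, BH-adjusted p = 0.1003). AABR07058158.1 near Myc had a log2 fold change of -0.08 (BH-adjusted p = 0.419), and Myc had 270 and 288 against 258 and 246 (-0.15, BH-adjusted p = 0.110). For Tug1 the log2 fold change was 0.07 ± 0.10 (BH-adjusted p = 0.659), and Morc2, a chromatin-silencing ATPase gene that starts 1.505 kb away head to head, had 620 and 609 against 621 and 599. The values of Tug1 and of Morc2 overlap between groups.

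Other members close to the threshold lay on both sides of 0. AABR07021544.1 had a log2 fold change of 0.18 ± 0.05 (BH-adjusted p = 0.0530), and its neighbour Tnn, the tenascin-N gene, had no value above 4. AABR07044049.1 had 19 and 12 in mock and 27 and 29 in Pdk3 (BH-adjusted p = 0.0562). AC111319.2, 0.127 kb from the cyclin-like gene Ccnyl1, had 17 and 27 against 37 and 33 (BH-adjusted p = 0.0912). Ccnyl1 had 462 and 451 against 490 and 533, a log2 change of 0.16 that lost its call with the floor at counting noise (limma, BH-adjusted p = 0.0441, with the floor 0.0860). AABR07030598.1 went the other way, with 39 and 44 in mock and 26 and 32 in Pdk3 (BH-adjusted p = 0.0890). The groups of these 4 rows do not overlap, and 61.0% of all genes tested share that.

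Each member was next set beside its nearest protein-coding row on the same chromosome. The nearest row overlapped 6 members, lay within 5 kb of another 35, at 5 to 50 kb for 44 and beyond 50 kb for 41, with a median gap of 19.8 kb. In 37 pairs the members stood head to head with the neighbour on the opposite strand, 35 lay downstream of its 3′ end and 27 upstream of its 5′ end on the same strand, and 21 stood tail to tail. Within 5 kb, head-to-head pairs were the most common arrangement, 14 of 41. These include LOC108348568 beside the kinesin gene Kif5b, LOC100909912 beside the nuclear receptor coactivator gene Ncoa3, and AC141220.3 beside Upf2, a factor of nonsense-mediated decay.

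A test of the neighbour was possible in 110 pairs with 104 different neighbours. Of the neighbours 18 were called higher and 16 lower. Among all tested protein-coding rows 23.5% were called, and 27.4% of those with a mean of 100 or more. Both rows were called in 3 pairs, in the same direction for AABR07072602.1 with Fbn2 and AABR07044366.1 with Mdc1 and in opposite directions for AABR07011996.1 with Gucy1b1. The neighbour alone was called in 31 pairs and the member alone in 5. A call in one row and not in the other is no test of a difference, which the log ratio below gives.

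Across the 110 pairs the 2 log2 fold changes had the same sign in 61 (55.5%), with a Pearson r of 0.20 and a Spearman rho of 0.13. In the 40 pairs with a gap up to 5 kb, the sign was the same in 27 (67.5%), with r = 0.46 and rho = 0.43. In the 32 pairs beyond 50 kb it was the same in 14 (43.8%), with r = -0.18 and rho = -0.15. These correlations run over pairs that share the same 4 libraries, with low values in many members, and are a description only. Overlapping rows and rows just downstream of a gene can also share reads, which was not tested.

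**Figure D5:**
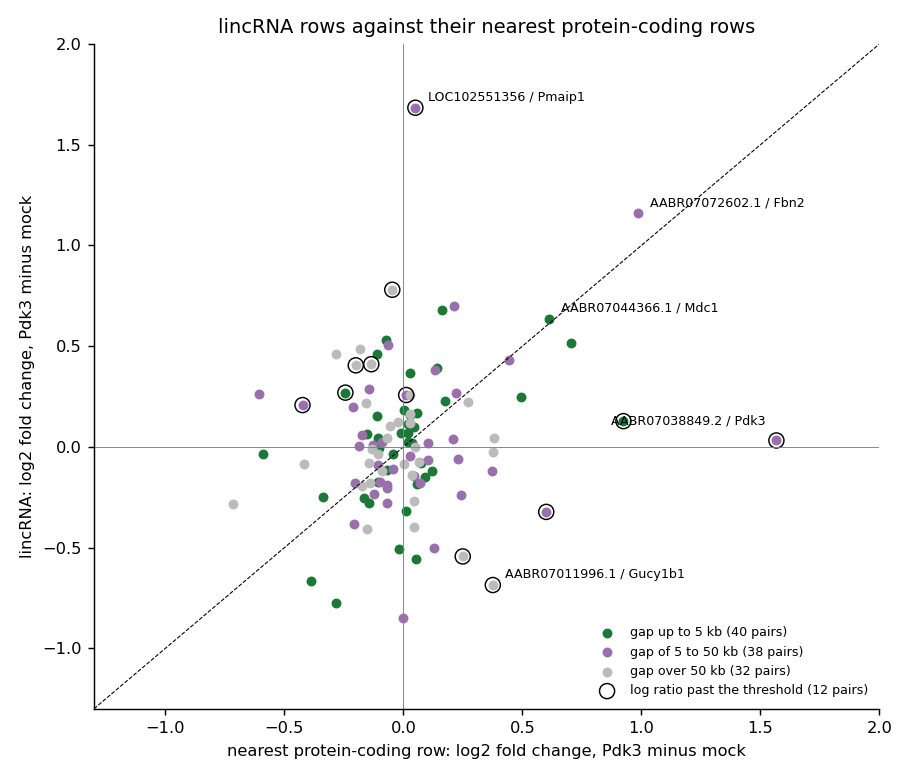
Log2 fold change, Pdk3 minus mock, of each lincRNA row against that of its nearest protein-coding row in the 110 tested pairs, coloured by the gap between them; the dashed line marks equal changes and rings mark the 12 pairs whose log ratio passed the threshold. AABR07072602.1 and AABR07044366.1 lie near the line with Fbn2 and Mdc1, while LOC102551356 and AABR07038849.2 lie far from it; the first passed through 1 group only, and the neighbour of the second is the delivered gene.

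The log ratio of a member to its neighbour differed between groups in 12 of the 110 pairs (10.9%), against 24.5% of all 10920 pairs of a gene and its nearest protein-coding row. The relative change favoured the member in 7 and the neighbour in 5. The floor at counting noise was not applied to log ratios, so the p of a pair can rest on a spread below counting noise. This limit weighs most on pairs with low members. Without Mock 1, 5 pairs of members passed. The choice of LOC102551356 and the delivery of Pdk3 fix 2 of the 12, and without the Pdk3 pair and the members that passed through 1 group only, 10 of 105 pairs passed. Of these 10, the pairs of AABR07041096.1, Rfwd3 and AABR07011996.1 are given above, and 7 remain. In 6 of the 7 the neighbour was called and the member was not, and in the pair with Ddhd1 neither was.

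Among them, the Wnt5a pair stood 23.4 kb apart. Wnt5a, a secreted signalling protein gene, fell from 781 and 757 to 563 and 583 (log2 change -0.42 ± 0.03, BH-adjusted p = 0.000175). AABR07024542.1 upstream of it had 15 and 14 in mock and 15 and 19 in Pdk3, and the log ratio differed by 0.63 ± 0.20 (BH-adjusted p = 0.0323). Arnt, the partner of the hypoxia-inducible factors, fell from 441 and 427 to 377 and 356, and AABR07012475.2, 2.98 kb upstream, had 35 and 36 against 44 and 42 (log ratio 0.51 ± 0.17, BH-adjusted p = 0.0407). The values of AABR07012475.2 were higher in both Pdk3 libraries, without a call of its own (BH-adjusted p = 0.254).

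The transcription factor gene Zhx2 fell from 546 and 505 to 452 and 462, and AABR07057997.1 had 23 and 27 against 30 and 37 (log ratio 0.60 ± 0.19, BH-adjusted p = 0.0329). Ddhd1, a phospholipase gene 307.6 kb from its member, had 425 and 441 against 379 and 410, and AABR07017268.1 had 61 and 67 against 75 and 97 (0.55 ± 0.14, BH-adjusted p = 0.0107). In these pairs the member was higher and the neighbour lower in Pdk3. The opposite held for Cchcr1, a centrosome protein gene, which rose from 140 and 126 to 194 and 210 while AABR07044375.2 had 45 and 38 against 30 and 36 (-0.92 ± 0.23, BH-adjusted p = 0.00960). Polr3a, the largest subunit of RNA polymerase III, rose from 610 and 654 to 740 and 762, and AABR07024457.1 had 17 and 16 against 8 and 15 (-0.79 ± 0.25, BH-adjusted p = 0.0312).

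The seventh pair overlaps on opposite strands. AABR07039356.2 had 252 and 290 in mock and 296 and 295 in Pdk3 (log2 change 0.13 ± 0.07, BH-adjusted p = 0.232), and LOC680227 across from it rose from 60 and 75 to 120 and 137 (0.92 ± 0.13, BH-adjusted p = 0.00293). Their log ratio differed by -0.80 ± 0.15 (BH-adjusted p = 0.000969). The library kit marks strand, per the labels' protocols, but the strand setting of the counting is not given in the sources used here, so the reads of these rows are assigned with less certainty. AABR07072236.1, which overlaps the sterol transport gene Gramd1c on the opposite strand, has the same limit.

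Genes that handle noncoding RNA were read from lists of known members. Of 23 tested genes of the nuclear exosome and its adaptors, 3 rose and 2 fell, with a median log2 fold change of 0.06, which turned to -0.03 with 1 higher and 5 lower under the ribosomal protein scaling. With the floor at counting noise 1 of the 5 calls stayed, that of Exosc2. This RNA-binding subunit gene, called under both scalings, rose from 169 and 192 to 241 and 253 (0.45 ± 0.08, BH-adjusted p = 0.00533). The calls lost with the floor were those of Zcchc8, a scaffold of the nuclear exosome targeting complex (0.20, BH-adjusted p = 0.0208, with the floor 0.0512), the nuclear exonuclease gene Exosc10 (0.14, 0.0406 and 0.115), Exosc4 (-0.26, 0.0391 and 0.0914) and the adaptor gene Zfc3h1 (-0.11, 0.0352 and 0.163). Of 17 nonsense-mediated decay genes, 3 rose and 1 fell, with a median of 0.03, which turned to -0.06 with 0 higher and 2 lower under that scaling, and 1 higher and 0 lower with the floor. The kinase gene Smg1, whose row has the biotype processed transcript, rose by 0.14 (BH-adjusted p = 0.00392) but was not called under the ribosomal protein scaling. The endonuclease gene Smg6 had a log2 fold change of -0.22 that lost its call with the floor (BH-adjusted p = 0.0250, with the floor 0.0586).

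Of 16 tested paraspeckle and nuclear speckle protein genes, 10 rose and 0 fell by limma, with a median of 0.13 (11 above and 0 below 0 at an unadjusted p under 0.05; 4 higher, 2 lower and 0.04 under the ribosomal protein scaling; 6 higher and 0 lower with the floor). Pspc1, a core paraspeckle protein gene, rose from 272 and 291 to 357 and 358 (0.34 ± 0.05, BH-adjusted p = 0.00302). The splicing factor genes Srsf1 and Srsf2 rose by 0.26 (BH-adjusted p = 0.00266) and 0.25 (BH-adjusted p = 0.00284). Of 11 polycomb complex 2 genes, 3 rose and 2 fell (2 and 2 under that scaling and with the floor). The methyltransferase gene Ezh2 rose from 224 and 265 to 397 and 458 (0.80 ± 0.09, BH-adjusted p = 0.000999), and its homologue Ezh1 fell from 373 and 364 to 263 and 238 (-0.56 ± 0.06, BH-adjusted p = 0.000657). The background for each list is 22.9% of all genes tested, with a median of -0.01. Of a list of 50 snoRNA host and other named long noncoding genes, Tug1 and Ptprv were in the table under these symbols, and neither was called (BH-adjusted p = 0.659 and 0.242). The Ptprv row has the biotype protein coding, so Tug1 is the only noncoding row found from this list.

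Library totals differed by 0.640%, and all marker lists of cell types had reads in each library. The 11 cardiomyocyte markers in the table summed to values of 23378 to 24517 per library, and none was at 0 in all libraries. Of these, 6 rose and 1 fell, with 0 and 1 under the ribosomal protein scaling and 4 and 1 with the floor. Of 8 macrophage markers 5 fell, with summed values of 1372 and 1289 in mock and 1088 and 1049 in Pdk3, and none of the 8 was at 0 in all libraries. Of 6 endothelial markers 2 fell and 0 rose, of 7 fibroblast markers 1 fell and 0 rose, and of 4 epicardial markers 2 fell and 0 rose. Of 6 smooth muscle and pericyte markers 2 rose and 0 fell, with a median of -0.0013, and the 1 tested erythroid marker was not called. Under the ribosomal protein scaling 5 of 7 fibroblast (median -0.21), 3 of 6 endothelial, 6 of 8 macrophage and 2 of 4 epicardial markers were lower with 0 higher, and 2 smooth muscle markers were higher and 1 lower. Of all 12838 genes tested, 937 were higher and 3594 lower under that scaling, with a median of -0.09. With the deposited scaling 11.7% of all genes were higher and 11.3% lower, and 16.0% were called with the floor. At an unadjusted p under 0.05, 1 endothelial marker and 0 fibroblast, macrophage and epicardial markers were higher, and 0 smooth muscle markers were lower. AABR07038983.1, 2.21 kb from the macrophage gene Vsig4, had 16 and 16 in mock and 22 and 4 in Pdk3, and Vsig4 had 20 and 16 against 18 and 10. The part of the cell mixture in the changes of the members was not tested. Within groups, the spread over the members was 0.697 of counting noise in the mock pair and 1.09 in the Pdk3 pair, on a scale where 1 is what counting alone gives for raw counts. The values are normalised and rounded, so this scale is approximate. Over all 12838 genes tested the spread was 0.576 and 0.646, below 1 in both pairs, and the fit takes its prior spread from these genes.

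With any of the 4 libraries left out, limma called 0 of the 12838 genes and so 0 members. In those fits 15 to 27 members and 2916 to 3347 genes had an unadjusted p under 0.05. Each called member kept its direction, which leaving out a library could not turn because the groups do not overlap. Log2 fold changes ranged from 0.95 to 1.37 for AABR07072602.1, 0.61 to 0.95 for AABR07041096.1 and -0.86 to -0.51 for AABR07011996.1.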

How the data were processed

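The authors deposited 1 table of 16290 genes with Ensembl identifiers, biotypes and coordinates, per the file headers. Its values are used as a score: read counts per gene that the authors normalised between libraries and rounded, not raw counts. The tools, per the submitters' processing notes, were FastQC, Trimmomatic 0.39, the aligner STAR 2.6.1d, featureCounts 1.6.5 of Subread and DESeq2 1.26.0, with build rn6; their settings are not given in the sources used. A score of 10 in at least 2 libraries was required, which kept 12838 genes. limma 3.58.1 in R 4.3.3 (lmFit, eBayes with an intensity trend) tested log2(value + 1) by group, two-sided, with Benjamini-Hochberg adjustment over all genes and a threshold of 0.05. This scale understates the change of low genes. Errors are SDs over libraries or limma's standard errors, with 2 residual and 5.56 prior degrees of freedom. A second fit tested the log ratio of each gene to its nearest protein-coding row, by rn6 coordinates, over 10920 pairs in which both genes passed the minimum. The fit of single genes was tested on counts simulated with counting noise alone, and the log ratio fit was not tested in this way.

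The members and gene lists were chosen with earlier results of these data known. Named are the called members, the 10 of highest mean, those with a gene symbol, their neighbours, and up to 4 called genes of each list; a few of these genes are not reported here. Further members (beside Pdk3, Hand2, Irx3 and Vsig4, near the threshold, or in a pair whose log ratio passed) and Nrm, Tubb5, Flot1 and Frmd8 were chosen after their values were seen. The cell type markers come from lists written with the other gene lists. Promoters are from RefSeq (GRCr8). By the labels, libraries 1 and 2 share only a number across groups, and depth is known only as totals of 4448199 to 4476649 normalised counts per library. Without molecular identifiers, reads are not independent molecules, and counting noise means counting error only. Counting noise is computed here from normalised values in place of raw counts and is approximate. The alternatives changed the scaling (TMM, or the median ribosomal protein gene), the minimum, the pseudocount, the trend and the threshold, added a replicate block, left out single libraries, or kept each p at or above the exact two-sided binomial p of the group sums. The last of these was applied to the fit of single genes and not to the log ratios.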

Additional observations from a re-analysis of the deposited data

How the results depend on the processing

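The 10 called members kept their direction in each setting in which they could be fitted. Their groups do not overlap, so only a change of scaling could have turned a sign. All 10 kept their call with the replicate block, TMM scaling and pseudocounts of 0.5 and 8, as did the 7 that a minimum of 50 leaves. With a floor at counting noise 2059 genes and 8 members (4 higher, 4 lower) were called. The 8 include LOC102551356 and AABR07030091.1, which passed the minimum through 1 group only. Other counts moved more. Leaving out a library gave 0 to 0 calls over all genes (2945 in all), members (10), members higher (6) and members lower (4), while pairs ranged from 1485 (without Mock 1) to 2505 against 2672, and pairs of members from 5 (without Mock 1) to 15 against 12. The ribosomal protein scaling gave 4531 genes and 17 members, 11 of them lower. Without a filter 976 genes, 2 members (0 higher, 2 lower), 1099 pairs and 5 pairs of members were called. Without an intensity trend the counts were 851 genes, 4 members (3 higher, 1 lower) and 744 pairs. At a threshold of 0.01 they were 1342 genes, 3 members (1 higher, 2 lower), 1531 pairs and 7 pairs of members. Some of these members had passed the minimum through 1 group only. They were LOC102551356 and AABR07030091.1 under the ribosomal protein scaling, AABR07030091.1 without a filter and LOC102551356 at the threshold of 0.01. Without the trend they were LOC102551356, AABR07030091.1 and AABR07026032.2, which leaves AABR07044366.1. A minimum of 50 gave 5 pairs of members, and gaps of at most 50 kb gave 7, in both cases with fewer pairs tested. The cause of the other shifts was not tested.

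The sign turned in at least 1 setting in 56 of the 126 members: in 54 with a library left out and in 18 under the ribosomal protein scaling. None of the 56 was called, and in called members leaving out a library could not turn the sign. Among the genes that the naming rule selects, 6 turned. Under the ribosomal protein scaling these were AABR07072236.1 (-0.062), Tug1 (-0.016), Pmaip1 (-0.036), Gramd1c (-0.060) and Glg1 (-0.075, adjusted p = 0.00841 by limma). With single libraries left out, values ranged from -0.040 (without Mock 1) to 0.088 for AABR07072236.1, from -0.023 (without Pdk3 1) to 0.046 for Glg1, from -0.018 (without Pdk3 2) to 0.12 for Pmaip1, from -0.39 (without Mock 1; -0.30 without Pdk3 2) to 0.43 for Gramd1c, and from -0.037 to 0.015 (without Pdk3 2; 0.0021 without Mock 1) for Morc2. The cause was not tested.

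The replicate block gave 2672 genes, 10 members, 2837 pairs and 13 pairs of members. The difference between libraries 1 and 2 of the mock group correlated with that of the Pdk3 group at r = 0.04 over 12838 genes and r = 0.04 over the 126 members. With a spread within pairs near or below counting noise, this correlation cannot show whether libraries of the same number were paired. Depth limits the low members most: 50 had a mean under 20.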

Other observations

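Other noncoding biotypes were read in the same fit. Of 43 tested rows with the biotype processed transcript, which holds many transcripts of coding genes as well as noncoding ones, 6 rose and 4 fell (limma, 23.3%), close to the 23.5% of protein-coding rows. AABR07035839.1 (chromosome 12, 24590645 to 24619639, minus strand, rn6) had 20 and 23 in mock and 77 and 103 in Pdk3, a log2 fold change of 2.00 ± 0.19 (adjusted p = 0.000356). It lies 11.9 kb from Tbl2. AC126641.1 on chromosome 1 went from 25 and 30 to 58 and 53, a log2 fold change of 0.99 ± 0.17 (adjusted p = 0.00578). The row named Arid5b, the symbol of a DNA-binding protein gene, fell from 890 and 880 to 733 and 720 (-0.28 ± 0.03, adjusted p = 0.000415).

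Of 100 tested pseudogene rows, 1 was called: AABR07044080.2 fell from 37 and 31 in mock to 22 and 18 in Pdk3 (log2 fold change -0.74 ± 0.21, limma, adjusted p = 0.0419). Of 52 processed pseudogene, 15 snoRNA, 12 miRNA precursor and 7 antisense rows, limma called 0, and 1, 1, 0 and 0 of them had an unadjusted p under 0.05.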
